A study of Homo sapiens with 24 samples.

Results

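MAP2, NEFL, DNER and RELN are genes of the maturing neuron, and their transcripts were read from 4 of the 43291 probes on the array. The study names MAP2, NEFL and DNER from these same arrays, and RELN was added by name as a secreted guidance protein, so none of the 4 was picked blind to its values. The deposited array files give probes and no gene names. Each gene was therefore found through the study's supplementary table of regulated genes, which lists 1 probe for each: UKv4_A_24_P231483 for MAP2, UKv4_A_24_P18137 for NEFL, UKv4_A_23_P362148 for DNER and UKv4_A_24_P309095 for RELN. The copy of that table used lacks 373 rows for IMR-32 and 213 for SK-N-BE(2), so a gene without a named probe may still be on the array.

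A neuroblast that matures grows long processes, and these need a scaffold of their own. MAP2 binds and steadies microtubules, mainly in dendrites, and NEFL is the light subunit of the neurofilaments that fill axons. DNER is a neuronal membrane protein with repeats like those of Notch ligands, and RELN encodes reelin, a large glycoprotein that neurons secrete and that guides migrating neurons through its receptors.

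The samples were total RNA of 3 human neuroblastoma lines, CHP-212, SK-N-BE(2) and IMR-32, each carrying either FOXP1, a forkhead transcription factor, or GFP as the control transgene. Both transgenes stood under a promoter that doxycycline switches on through the reverse tetracycline transactivator (RevTet system), and RNA was taken after 0, 12, 24 and 72 h of induction. That gave 6 groups of 4 one-colour arrays, 24 in all, and the comparison addresses which transcripts FOXP1 alters. The cultures were polyclonal, and the study compares FOXP1 with GFP cells because the promoter leaks, so 0 h is no state without transgene. Within a group, the 4 arrays follow one culture over time and are not independently made cultures, so their spread includes the time course. Every p below therefore weighs a difference against spread within cultures, not between separately made ones. Transgene and culture cannot be told apart.

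Each line lay on 2 slides, 1 with both transgenes at 0 and 12 h and 1 with both at 24 and 72 h. Line and slide cannot be told apart, whereas FOXP1 and GFP arrays share every slide. The share of probes well above background, the scanner software's mark for a measurable spot, was 72.8 to 82.3% in IMR-32 and 73.6 to 80.4% in SK-N-BE(2). For CHP-212 it was 53.9 to 60.4% at 0 and 12 h but 78.0 to 81.5% on the later slide, so dim transcripts were measured less often early than late in that line. Levels are given as log2 of the processed signal relative to the 75th percentile of the same array, and 0 means a level at that percentile. Levels of different probes were not compared, because a probe's brightness also depends on its sequence.

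The FOXP1 probe (UKv4_A_23_P155257) serves as a check of the labels. In IMR-32, its log2 level at 0, 12, 24 and 72 h was 1.05, 1.19, 1.39 and 1.18 on the GFP arrays and 2.60, 2.76, 2.66 and 2.38 on the FOXP1 arrays. In CHP-212, it was 0.77, 1.21, 1.08 and 1.05 in GFP cells and 2.81, 3.28, 3.00 and 2.94 in FOXP1 cells. In both lines the groups were apart at every time point, 0 h included. In SK-N-BE(2), the GFP arrays had 3.00, 3.30, 2.87 and 2.81 and the arrays labelled FOXP1 had 2.97, 2.84, 2.63 and 2.73. There the groups overlapped and the labelled arrays were the lower at all 4 times, so on these arrays the direction of any SK-N-BE(2) comparison rests on the label. In assays other than the arrays, the study's blot shows more FoxP1 protein in FOXP1 than in GFP cells of SK-N-BE(2), and it reports fewer viable cells and fewer soft agar colonies for the FOXP1 cells of this line. Which culture gave each array's RNA was not tested, and comparisons between lines are also given with the 2 labels of SK-N-BE(2) exchanged, an alternative chosen after seeing the data.

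Cell type markers could be read in part, the incomplete table naming a probe for 3 of 9 sympathetic neuroblast markers, 1 of 12 mesenchymal or Schwann cell markers and 2 of 3 markers of other cells. In IMR-32, the mean log2 level of TH, which makes catecholamines, was 2.18 in FOXP1 and -1.16 in GFP cells, that of DBH, a later enzyme of the same path, was 3.04 and -0.82, and that of CHGB, a granule protein, was 4.06 and 1.25. All 3 sympathetic markers with a named probe moved with the IMR-32 comparison, by log2 differences of 3.33, 3.85 and 2.82. The study selected the named probes on these arrays as those of regulated genes, so their moving is no independent evidence. In CHP-212, TH stood at 3.28 and 3.05 and did not pass, while DBH passed with a log2 difference of 2.07 on a probe measured on 3 FOXP1 and 2 GFP arrays, but with the unmeasured GFP spots at the array's lowest measurable signal, or at their own where higher, the difference was 0.98, short of 2-fold. CHGB did not pass in CHP-212 or SK-N-BE(2), and neither did TH or DBH in SK-N-BE(2). The mesenchymal marker PRRX1 and the leukocyte marker PTPRC were well above background on 0 of 24 arrays, and the endothelial marker PECAM1 on 3 of 24. In bulk RNA, fewer cells of a type and less RNA per cell cannot be told apart, and whether the sympathetic markers share in the results that follow was not tested.

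**Figure D1:**
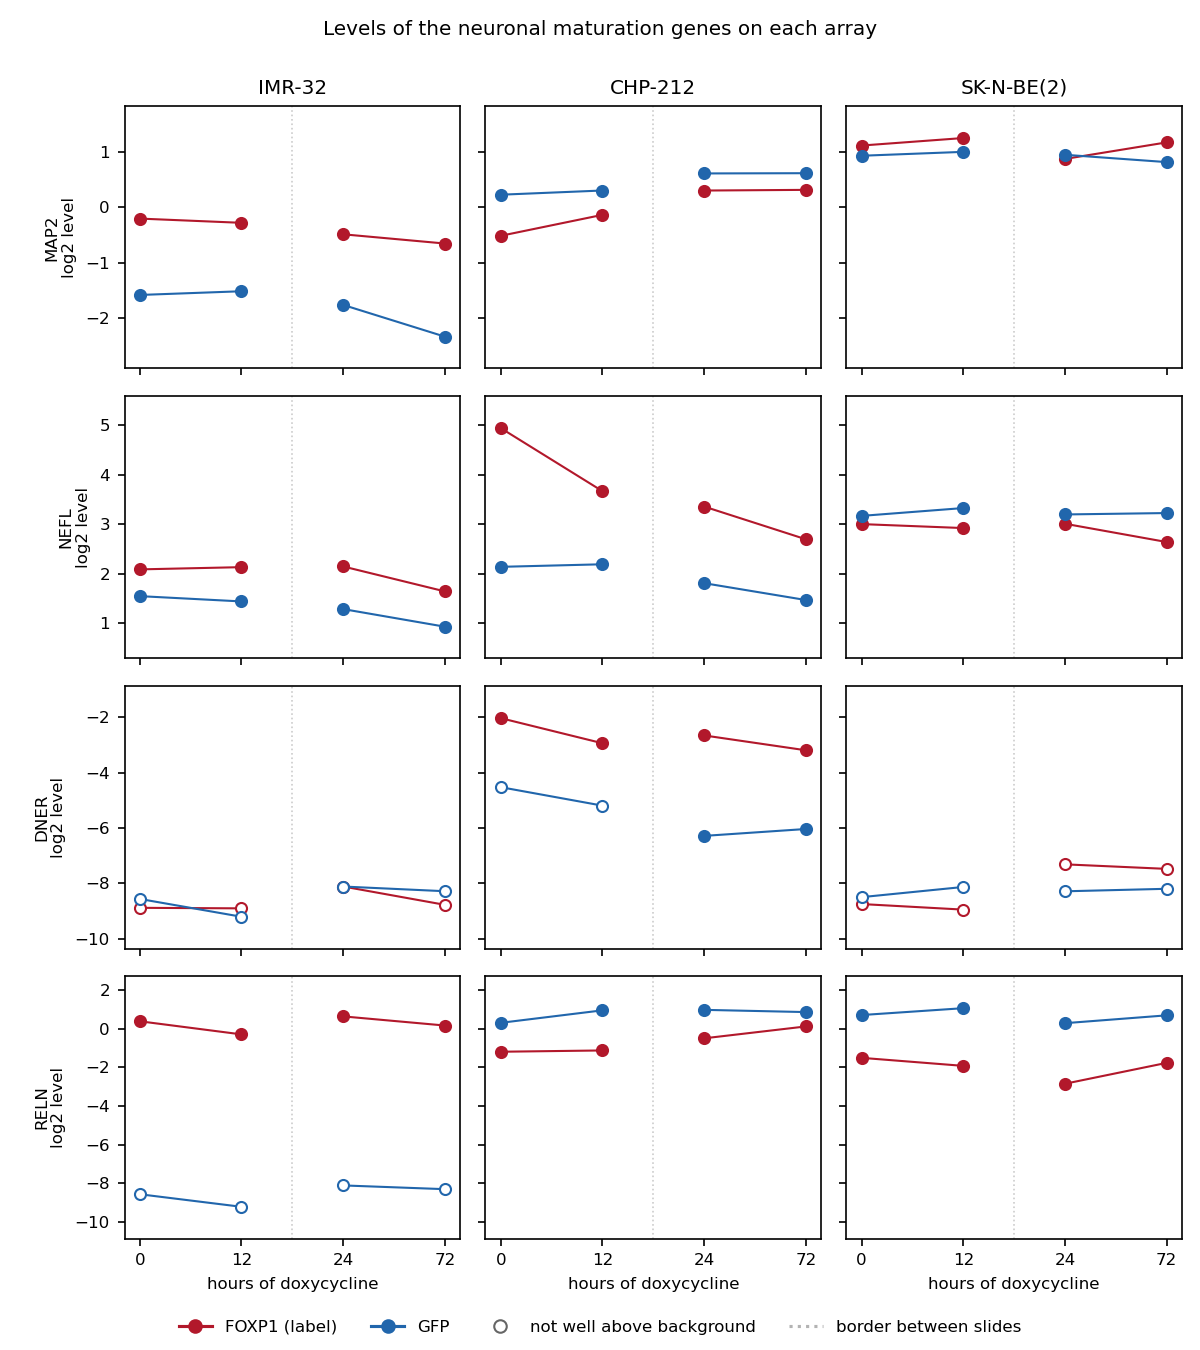
Log2 level of MAP2, NEFL, DNER and RELN (vertical axis, relative to the 75th percentile of the array) against hours of doxycycline (evenly spaced, not to scale), 1 point per array, with lines joining arrays of one slide. Filled points are well above background and open points are not; RELN in IMR-32 is open on all 4 GFP arrays and between -0.29 and 0.64 on the FOXP1 arrays.

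MAP2, the dendritic microtubule protein, was well above background on all 24 arrays. RefSeq (GRCh38.p14) gives 3 starts of the gene in the table used, and a promoter here is the window from 250 bases before to 50 bases after a start. The windows were searched on both strands for TGTTTA, the forkhead core, whose reverse complement TAAACA is the same site read on the other strand. Of all 35116 promoters of this length, 12.3% hold it. The MAP2 window at chr2:209661246-209661545 (+ strand) holds it once, beginning at position -131 from the start, and the windows at chr2:209579082-209579381 and chr2:209579357-209579656 hold 0. It is shown because FOXP1 is a forkhead factor and MAP2 passed in one of the lines with a higher FOXP1 level. The capitals mark the match, which describes letters and no bound site. The 12.3% is a share of single windows of any base composition, whereas 3 windows were searched for MAP2.
MAP2 promoter: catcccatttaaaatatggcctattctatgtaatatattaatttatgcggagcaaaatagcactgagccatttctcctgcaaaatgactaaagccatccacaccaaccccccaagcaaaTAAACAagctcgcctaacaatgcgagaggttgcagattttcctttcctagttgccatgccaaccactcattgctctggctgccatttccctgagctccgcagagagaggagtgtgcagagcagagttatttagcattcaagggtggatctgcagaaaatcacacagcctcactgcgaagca

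In IMR-32, the MAP2 log2 level on the GFP arrays was -1.59, -1.52, -1.77 and -2.35 at 0, 12, 24 and 72 h. On the FOXP1 arrays of that line it was -0.20, -0.28, -0.49 and -0.65. Every FOXP1 array lay above every GFP array, and in both cultures the 72 h array was the lowest. FOXP1 cells held 2.62, 2.37, 2.43 and 3.23 times the GFP level at the 4 times. The mean rose from -1.81 ± 0.37 to -0.41 ± 0.21 (SD, n = 4 arrays each), which is 1.40 in log2 (standard error 0.21), or 2.64-fold, with an adjusted p of 0.000936 in limma. Within the slides the difference was 1.31 (0 and 12 h) and 1.49 (24 and 72 h). A probe is called here at an adjusted p under 0.05 and at least a 2-fold change, and MAP2 was called in IMR-32.

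The other lines gave no call for MAP2. In CHP-212, GFP cells had 0.23, 0.31, 0.62 and 0.62 and FOXP1 cells -0.51, -0.13, 0.31 and 0.32. The FOXP1 array was the lower at each time point, but both cultures read higher on the later slide and the group ranges overlapped. The log2 difference was -0.45 (standard error 0.22, adjusted p = 0.328), with -0.59 and -0.31 within the slides. In SK-N-BE(2), the arrays labelled GFP had 0.94, 1.01, 0.96 and 0.82 and those labelled FOXP1 had 1.12, 1.26, 0.88 and 1.18. These ranges overlapped, the labelled array being the higher at 3 of 4 times, and the difference was 0.18 (standard error 0.14, adjusted p = 0.907; 0.22 and 0.14 within the slides).

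NEFL, the neurofilament subunit, was also well above background on all 24 arrays. In IMR-32, its log2 level was 1.55, 1.44, 1.29 and 0.93 in GFP cells and 2.09, 2.13, 2.15 and 1.64 in FOXP1 cells. The FOXP1 arrays lay above all GFP arrays, the 72 h array of each culture being its lowest. FOXP1 cells held 1.45, 1.62, 1.82 and 1.64 times the GFP level. The log2 difference of 0.70 (standard error 0.19, adjusted p = 0.0243; 0.62 and 0.79 within the slides) passed the test, but 1.63-fold is short of the 2-fold limit, so NEFL was not called. The test was not passed with normexp, a background correction that adds 50 to every signal and so draws dim values together (0.57, adjusted p = 0.253), with all 24 arrays in 1 fit (adjusted p = 0.117) or with 12, 24 and 72 h alone (0.76, adjusted p = 0.0591). It was also missed when the GFP array of 24 or 72 h or the FOXP1 array of 0, 12 or 24 h was left out (0.70, 0.58, 0.67, 0.66 and 0.65, adjusted p from 0.0565 to 0.0713), and over all alternatives the adjusted p started at 0.00435.

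In CHP-212, NEFL stood at 2.14, 2.19, 1.81 and 1.47 in GFP cells and at 4.94, 3.67, 3.36 and 2.70 in FOXP1 cells. No FOXP1 array overlapped a GFP array, and the 0 h array was far above its own later time points. That array was the dimmest of the 24, with a 75th percentile of 398 against 826 to 2142 on the others and 53.9% of probes measurable, and before scaling its NEFL signal (12222) was below that at 12 h (13858), by less than the FOXP1 (2785 and 10566), MAP2 (278 and 993) and RELN signals (174 and 500) of the same arrays. The FOXP1 level was accordingly 6.98 times the GFP level at 0 h and 2.78, 2.92 and 2.34 times at 12, 24 and 72 h. The means, 3.67 ± 0.94 and 1.90 ± 0.33 (SD, n = 4), were 1.76 apart in log2 (standard error 0.43), or 3.40-fold, with an adjusted p of 0.0557 that just missed the threshold. It passed with the slide as a block (adjusted p = 0.0152), and the within-slide differences were 2.14 and 1.39. It also passed without the 0 h FOXP1 array (1.34, adjusted p = 0.0463) or without the 72 h FOXP1 array (2.09, adjusted p = 0.0273), and over all alternatives the adjusted p ran from 0.000612 to 0.157.

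In SK-N-BE(2), NEFL was 3.17, 3.33, 3.20 and 3.23 on the GFP arrays and 3.00, 2.92, 3.01 and 2.64 on those labelled FOXP1. All labelled arrays were below all GFP arrays, by little. The log2 difference was -0.34 (standard error 0.14, adjusted p = 0.629), and -0.29 and -0.39 within the slides.

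DNER, the Notch-ligand-like membrane protein, was measurable in CHP-212 and in no other line: in IMR-32 and SK-N-BE(2), 0 of 8 arrays had its probe well above background, and no fold is given there. In CHP-212, the GFP arrays read -4.53 and -5.20 at 0 and 12 h, both not well above background, and -6.29 and -6.04 at 24 and 72 h, both measured. The FOXP1 arrays read -2.03, -2.94, -2.66 and -3.20, all well above background. Each FOXP1 array exceeded each GFP array, and the early GFP readings, on the slide with fewer measurable probes, are not measured levels.

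Where a spot is not well above background, a ratio is only a bound. It is taken against the higher of that spot's own signal and the lowest signal that was well above background on the same array, and is written as at least that many fold. For DNER the FOXP1 level was at least 5.27 times the GFP level at 0 h and at least 2.60 times at 12 h, and 12.4 and 7.19 times at 24 and 72 h. Over the 4 arrays of each group, of which 2 GFP arrays measured it, the level was at least 5.91-fold higher, a log2 bound of 2.56. The fit, which takes the 2 unmeasured spots at their own signal, gave 2.81 (standard error 0.41, adjusted p = 0.00614), and DNER was called. On the slide where all 4 arrays measured it the difference was 3.24, and on the other slide the bound was 1.89. With normexp the fit gave 1.45 (adjusted p = 0.00589; 5.27e-05 to 0.0373 over all alternatives).

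RELN, the secreted guidance protein, had the widest contrast among the members. Its promoter in RefSeq (GRCh38.p14, chr7:103989609-103989908, - strand) is shown because the probe went from unmeasurable to bright in one line and down in the others, and for its base composition. It is 83.3% G and C, more than 99.3% of all promoters (median 58.7%), and holds 52 CpG dinucleotides, more than 99.2% of them (median 14). TGTTTA or TAAACA is in it 0 times, so nothing is in capitals. The MAP2 window above has 45.3% G and C and 5 CpG. DNER and NEFL have no entry in the promoter table.
RELN promoter: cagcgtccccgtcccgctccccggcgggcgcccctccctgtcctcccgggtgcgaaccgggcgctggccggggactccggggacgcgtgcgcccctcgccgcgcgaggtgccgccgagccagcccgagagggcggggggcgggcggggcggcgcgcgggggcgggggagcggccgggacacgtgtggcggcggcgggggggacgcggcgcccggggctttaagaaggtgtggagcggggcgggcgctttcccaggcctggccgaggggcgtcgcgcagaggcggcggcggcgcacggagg

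In IMR-32, RELN was not well above background on any GFP array, which read -8.56, -9.21, -8.10 and -8.30. On the FOXP1 arrays it read 0.38, -0.29, 0.64 and 0.16, all well above background. The probe was thus near the 75th percentile of the array in one culture and unmeasured in the other, already at 0 h. The FOXP1 level was at least 121, 125, 115 and 86.7 times the GFP level at 0, 12, 24 and 72 h. Over the groups it was at least 111-fold higher, a log2 bound of 6.79 (adjusted p of the fit 3.49e-08), with bounds of 6.95 and 6.64 within the slides. The probe met the filter for testing, 4 measured arrays, through its FOXP1 arrays alone. The fit takes the unmeasured GFP spots at their own signal, so its p adds no support to the bound. Under normexp the bound was 4.24 and RELN was called (adjusted p of the fit 5.67e-15 to 5.65e-05 over the alternatives).

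In CHP-212, RELN ran the other way. GFP cells had 0.30, 0.95, 0.98 and 0.86 and FOXP1 cells had -1.19, -1.12, -0.50 and 0.12. All FOXP1 arrays were below all GFP arrays, and the gap narrowed at 72 h. The GFP level was 2.82, 4.21, 2.77 and 1.67 times the FOXP1 level at the 4 times. The mean fell from 0.77 ± 0.32 to -0.67 ± 0.61 (SD, n = 4), which is -1.45 in log2 (adjusted p = 0.0351, standard error 0.31), or 2.73-fold, with -1.79 and -1.11 within the slides. RELN was called, but the call is narrow. It ended when the GFP array of 12, 24 or 72 h, or the FOXP1 array of 0, 12 or 24 h, was left out (log2 differences -1.39, -1.38, -1.42, -1.27, -1.30 and -1.51), and the adjusted p over all alternatives ran from 0.00585 to 0.105.

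In SK-N-BE(2), RELN stood at 0.71, 1.06, 0.29 and 0.69 on the arrays labelled GFP and at -1.51, -1.92, -2.85 and -1.77 on those labelled FOXP1. All labelled arrays lay far below all GFP arrays, although the FOXP1 probe itself was not higher on them. The GFP level was 4.64, 7.91, 8.77 and 5.49 times that of the labelled arrays. The log2 difference was -2.70 (standard error 0.30, adjusted p = 0.00524), or 6.48-fold lower, and -2.60 and -2.79 within the slides, and RELN was called. The call was lost in the fit of 12, 24 and 72 h alone (-2.86, adjusted p = 0.066; over all alternatives from 2.17e-05), which has 3 arrays a group.

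**Figure D2:**
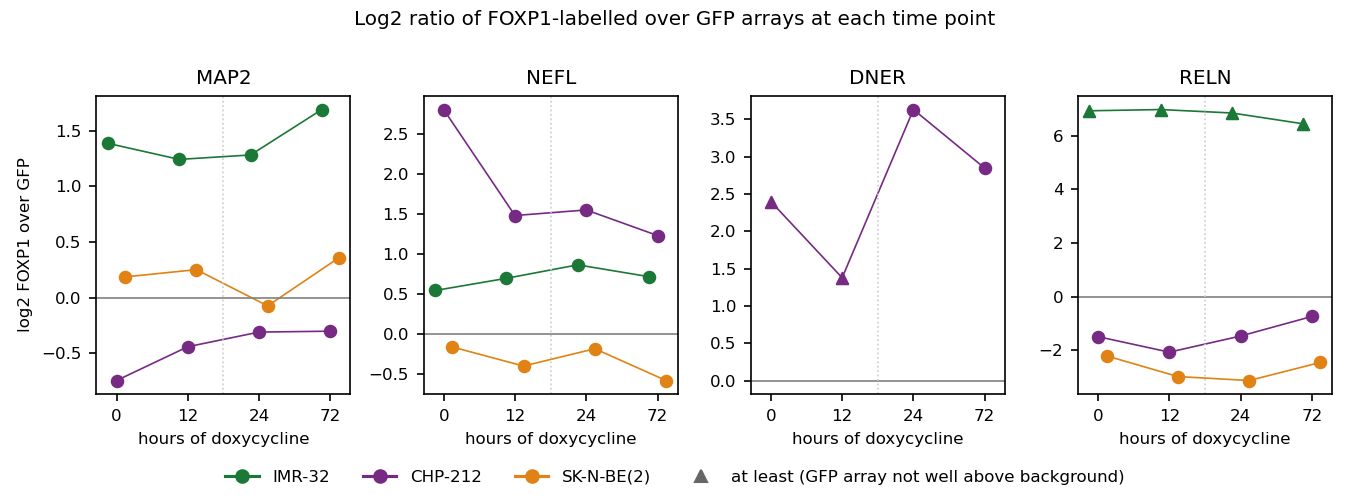
Log2 ratio of the FOXP1-labelled over the GFP array of each time point (vertical axis) against hours of doxycycline (evenly spaced), 1 point per pair of arrays, coloured by line; triangles are lower bounds, and pairs with both arrays not well above background are not drawn. RELN lies above 0 in IMR-32 and below it in the other lines at all 4 times, and NEFL in CHP-212 is highest at 0 h, with a ratio of 6.98.

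Set beside all probes tested, the members were called as follows. In IMR-32, 2 of the 3 members tested were called, MAP2 and RELN, both higher, RELN having met the filter of 4 measured arrays through its FOXP1 arrays alone, where 12.2% of all 33806 probes were called, 2142 higher and 1980 lower. In CHP-212, 2 of 4 were called, DNER higher and RELN lower, against 3.03% of 32958 probes, 639 higher and 358 lower. In SK-N-BE(2), RELN alone of 3 was called, lower, against 0.720% of 34044 probes, a total of 245 that became 477 when the time point was a block. Because the study chose MAP2, NEFL and DNER on these arrays, and the supplementary table holds probes it selected on them, these shares are no independent evidence. Normexp moved the median log2 difference of all probes to 0.22 in IMR-32 and 0.14 in CHP-212, from -0.01 and 0.02, and its calls were 905 higher and 521 lower in IMR-32 and 457 higher and 148 lower in CHP-212. The directions of MAP2, NEFL, DNER and RELN in the tests above were the same under normexp, quantile normalization and the authors' values.

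A call in one line and none in another does not show that lines differ. The difference between lines in FOXP1 against GFP, called the effect below, was therefore tested with all 24 arrays. Each effect compares a FOXP1 culture with a GFP culture, and in SK-N-BE(2) these go by their label. For MAP2, the effect in IMR-32 exceeded that in CHP-212 by 1.85 on the log2 scale (adjusted p = 4.7e-05, standard error 0.28) and that in SK-N-BE(2) by 1.22 (adjusted p = 0.00404). CHP-212 and SK-N-BE(2) differed by -0.63 for MAP2, which did not pass (adjusted p = 0.279). For NEFL, the effect in CHP-212 exceeded that in SK-N-BE(2) by 2.10 (standard error 0.43, adjusted p = 0.00549). The NEFL effect in IMR-32 was -1.06 against CHP-212 and 1.04 against SK-N-BE(2), and neither passed (adjusted p = 0.109 and 0.139) in this fit, which does not pair the arrays of a time point. With the ratios of each time point compared between lines, an alternative chosen after seeing the data, both passed (adjusted p = 0.0181 and 0.0232), and the NEFL ratio was above 1 at all 4 times in IMR-32 and below 1 at all 4 in SK-N-BE(2). With the labels of SK-N-BE(2) exchanged, the differences of IMR-32 minus SK-N-BE(2) were 1.58 for MAP2 (adjusted p = 0.000321) and 0.37 for NEFL (adjusted p = 0.712). Those of CHP-212 minus SK-N-BE(2) were then -0.27 for MAP2, and 1.43 for NEFL, which no longer passed (adjusted p = 0.0664).

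For RELN, the effect in IMR-32 exceeded that in CHP-212 by at least 8.24 (adjusted p of the fit 5.8e-13) and that in SK-N-BE(2) by at least 9.49 (adjusted p of the fit 1.22e-13), bounds that were 5.57 and 6.61 with normexp. With the labels of SK-N-BE(2) exchanged, the latter bound was 4.10 (adjusted p of the fit 2.15e-09). These fits take the unmeasured IMR-32 GFP spots at their own signal, so their p values add no support to the bounds. As labelled, CHP-212 minus SK-N-BE(2) was 1.25, which did not pass unpaired (adjusted p = 0.161) and passed with the ratios of each time point (adjusted p = 0.0181), whereas with the labels exchanged it was -4.14 and passed (adjusted p = 5.44e-06), so the order of these RELN effects depends on the labels. DNER was dim in both groups of 2 lines, and no difference is given for it. Of the 3 members so compared, 2 were called for IMR-32 against CHP-212, where 11.8% of 36234 probes were, 2 for IMR-32 against SK-N-BE(2), where 9.68% were, and 1 for CHP-212 against SK-N-BE(2), where 2.75% were. A call here needs a difference of at least 1. RELN is 1 of the 2 in both IMR-32 comparisons, through fits that use unmeasured GFP spots.

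The lines also differed on the arrays labelled GFP. In SK-N-BE(2) these had a mean FOXP1 log2 level of 2.99, beside 3.01 in CHP-212 FOXP1 cells and 2.79 on the arrays labelled FOXP1 of their own line, so they are named by their label. MAP2 was lower in IMR-32 than in CHP-212 by a log2 difference of -2.25 (adjusted p = 2.31e-09) and than in SK-N-BE(2) by -2.74 (adjusted p = 1.91e-10). NEFL was lower than in SK-N-BE(2) by -1.93 in IMR-32 (adjusted p = 2.19e-05) and by -1.33 in CHP-212 (adjusted p = 0.00091), and at -0.60 IMR-32 and CHP-212 did not pass (adjusted p = 0.11). RELN was at least 162-fold higher in CHP-212 and at least 153-fold higher in SK-N-BE(2) than in IMR-32 (log2 bounds -7.34 and -7.26 for IMR-32 minus the other, -4.96 and -4.66 with normexp), and CHP-212 and SK-N-BE(2) differed by 0.09. As labelled, RELN was higher with FOXP1 in the line where GFP arrays did not measure it, and lower in the lines where they read it bright. The same GFP arrays enter the level and the difference, and an unmeasured probe can only be seen to rise, so this describes the arrays and tests no relation. With the SK-N-BE(2) labels exchanged it does not hold, since RELN would there be higher with FOXP1, from a measured mean of -2.01. With the arrays labelled FOXP1 standing for SK-N-BE(2), IMR-32 was lower by -2.92 for MAP2 and -1.59 for NEFL, and by a bound of -4.56 for RELN, and CHP-212 minus SK-N-BE(2) became -0.99 for NEFL, short of 2-fold, and 2.78 for RELN, which passed (adjusted p = 1.95e-07).

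DNER was measured on 2 of the 4 CHP-212 GFP arrays and on 0 of the GFP arrays of the other lines. Over those 2 arrays, of 24 and 72 h, its log2 level was -6.17 on average, and the bound against the IMR-32 arrays of the same times was 1.05-fold, as it was against SK-N-BE(2). DNER in GFP cells is therefore not counted as called between lines. Of the 3 members so compared, 2 were called between IMR-32 and CHP-212, where 30.8% of all probes were, 3 between IMR-32 and SK-N-BE(2), where 24.7% were, and 1 between CHP-212 and SK-N-BE(2), where 30.6% were. RELN is among those called in both IMR-32 comparisons, although no IMR-32 GFP array measured it.

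**Figure D3:**
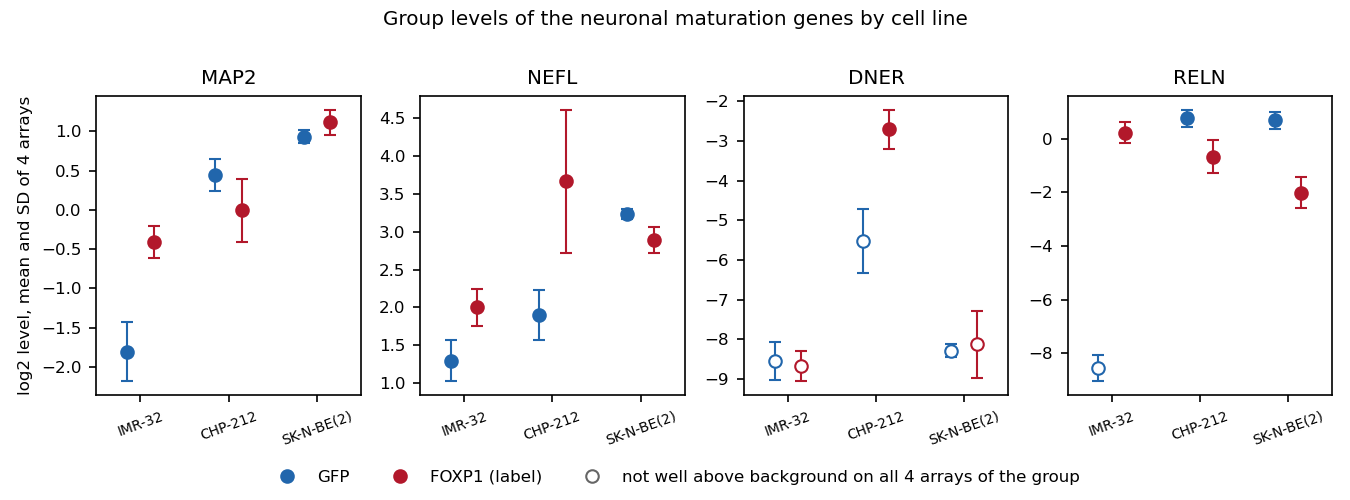
Mean log2 level of each member (vertical axis, relative to the 75th percentile of the array) in the 6 groups, with bars for the SD of 4 arrays; open points mark groups in which the probe was not well above background on all 4 arrays. MAP2 runs from -1.81 in IMR-32 GFP cells to 1.11 in SK-N-BE(2) cells labelled FOXP1, and RELN is measured in 5 groups and not in IMR-32 GFP cells.

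Ordered by their means over the 4 arrays, the groups ranked differently for each gene. MAP2 was highest in SK-N-BE(2) labelled FOXP1 (1.11 ± 0.16) and SK-N-BE(2) labelled GFP (0.93 ± 0.08), which overlapped. CHP-212 GFP (0.44 ± 0.20), CHP-212 FOXP1 (-0.01 ± 0.40) and IMR-32 FOXP1 (-0.41 ± 0.21) came next, each overlapping its neighbour, and IMR-32 GFP (-1.81 ± 0.37) stood apart below them. With FOXP1, then, MAP2 in IMR-32 reached the range of CHP-212 FOXP1 cells and not that of CHP-212 GFP cells or of SK-N-BE(2).

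NEFL was highest in CHP-212 FOXP1 (3.67 ± 0.94), whose wide range overlapped that of SK-N-BE(2) labelled GFP (3.23 ± 0.07). SK-N-BE(2) labelled FOXP1 (2.89 ± 0.17) overlapped neither neighbour in this order, and IMR-32 FOXP1 (2.00 ± 0.24), CHP-212 GFP (1.90 ± 0.33) and IMR-32 GFP (1.30 ± 0.27) overlapped in turn. For RELN, CHP-212 GFP (0.77 ± 0.32), SK-N-BE(2) labelled GFP (0.69 ± 0.32), IMR-32 FOXP1 (0.22 ± 0.39) and CHP-212 FOXP1 (-0.67 ± 0.61) formed an overlapping series. SK-N-BE(2) labelled FOXP1 (-2.01 ± 0.58) lay below it, and the unmeasured IMR-32 GFP group last. DNER was highest in CHP-212 FOXP1 (-2.71 ± 0.50), and the other groups have no order, because CHP-212 GFP measured it on 2 arrays and the groups of the other lines on 0.

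Time was followed within slides, since only 12 against 0 h and 72 against 24 h share one. Over the 6 cultures, the mean change from 0 to 12 h was 0.11 for MAP2, -0.20 for NEFL and -0.11 for RELN on the log2 scale, and 0 of these passed in limma (adjusted p = 0.77, 0.751 and 0.88, with 0 at an unadjusted p under 0.05), where 1.31% of all probes did, 3 higher and 471 lower. In the CHP-212 FOXP1 culture alone NEFL fell by 1.27 over this step. From 24 to 72 h, the changes were -0.09, -0.37 and 0.22, and 0 passed (adjusted p = 0.792, 0.565 and 0.699), where limma called 0 of all probes (0%), with 3182 at an unadjusted p under 0.05. NEFL was among the latter with an unadjusted p of 0.0155. The RELN means include the IMR-32 GFP culture, where the probe was unmeasured, and DNER was measured at both times of a step in too few cultures.

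The ratio of FOXP1 over GFP could also drift with time, and its slope was fitted per 72 h. For MAP2 the slope was 0.34 in CHP-212, 0.39 in IMR-32 and 0.18 in SK-N-BE(2). For NEFL it was -1.14, 0.11 and -0.37 in the same order, and for RELN 0.08 in SK-N-BE(2) and 1.02 in CHP-212, where both arrays of a time point were measured. These slopes all missed the threshold, the lowest adjusted p being 0.445 for NEFL (unadjusted 0.0390) and 0.448 for RELN, both in CHP-212. Among all probes, limma called 2 slopes in IMR-32 (0.00592%). It called 0 in the other lines (0%), where the unadjusted p was under 0.05 for 3701 probes of CHP-212 and 1666 of SK-N-BE(2).

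The pathways around the members were read from 3 lists of genes, matched through the supplementary table. As that table holds probes the study selected on these arrays, the counts are no independent evidence of a direction. Of 33 genes of the neuronal cytoskeleton, 20 had a probe named in the incomplete copy and 18 were tested in each line. In IMR-32, 4 of them rose and 6 fell by the call rule, where 12.2% of all probes were called, with a median log2 difference of -0.69 over the 18, against -0.01 over all probes (-0.82 and -0.58 within the slides). DCLK3, 1 of the 6, met the filter of 4 measured arrays through its GFP arrays alone. Among genes measured on all 8 arrays, 4 were called higher and 5 lower. MAP7, which couples microtubules to kinesin, was higher by 3.67, and the stathmins STMN4 and STMN2, which loosen microtubules in growth cones, by 2.16 and 1.66. DCX, which stabilises microtubules in migrating neurons, differed by -2.36 and the peripheral intermediate filament PRPH by -2.32, while the kinase DCLK3 was not well above background in FOXP1 cells and at least 29.9-fold lower there. With normexp DCX and DCLK3 were not called (adjusted p = 0.168 and 0.137), nor was DCX with the methods' t-test (adjusted p = 0.0517). MAP2 was thus called higher in a list whose median was below 0.

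In CHP-212, 4 cytoskeletal genes were called higher and 1 lower, where 3.03% of all probes were called, with a median of 0.20 against 0.02 (0.38 and 0.15 within the slides; 0.36 over the 11 genes measured on all 8 arrays). The 0.38, of the slide of 0 and 12 h, includes MAP6, MAP7, STMN4 and DCX, which 0 of its arrays measured. The median of 0.20 itself rests in part on MAP7. With the time or the slide as a block, or all 24 arrays in 1 fit, 5 genes of the list were higher and 2 lower. With quantile normalization, 3 were higher and 0 lower. The tubulins TUBB2A and TUBB2B were higher by 1.84 and 1.81 and DCLK2 by 1.70, the last measured on 3 of 4 GFP arrays. MAP7D2, a relative of MAP7, differed by -2.41, measured on 2 of 4 FOXP1 arrays and by the rule for such spots at least 2.81-fold lower; it was not called with normexp or quantile normalization (adjusted p = 0.0531 and 0.0548). TUBB2A went the other way in IMR-32, by -1.24, and the effects differed by -3.08 (IMR-32 minus CHP-212, adjusted p = 1.79e-06). In SK-N-BE(2), where 0.720% of all probes were called, limma called 0 of 18 and the methods' t-test 0, with 7 at an unadjusted limma p under 0.05, and a fit blocked on time called 1. The median there was 0.10 against -0.01 (0.15 and 0.06 within the slides).

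Of 32 Notch pathway genes, 12 had a probe named there. In IMR-32, 2 of 8 tested were called higher and 3 lower, beside 12.2% of all probes, with a median of -0.11 (-0.41 and 0.21 within the slides; -0.57 over the 6 genes measured on all 8 arrays; 0.32 under normexp, against 0.22 over all probes). NOTCH2NL, a truncated Notch relative, was higher by 2.77 (measured on 3 of 4 GFP arrays) and the target HEYL by 2.23. The ligand JAG1 differed by -2.83, the ligand-like DLK2, listed there as EGFL9, by -2.24 and the HES family member HES6 by -1.46. With normexp NOTCH2NL, JAG1 and DLK2 were not called (1.42, -1.58 and -0.63). In CHP-212, 2 of 9 were called, both higher, beside 3.03% of all probes. The count was 3 with normexp, with the time or the slide as a block and with all 24 arrays in 1 fit. The median was 0.48. This is the value of MAML2, which 0 of 4 arrays measured on the slide of 0 and 12 h, so there the list has no median; it was 0.58 on the other slide and 1.03 over the 4 genes measured on all 8 arrays. The genes called were DNER itself and JAG1 by 1.66 (adjusted p = 0.0197). JAG1 lost its call with the methods' t-test (adjusted p = 0.065), with 12, 24 and 72 h alone (1.32) and without the GFP array of 0, 12 or 72 h or the FOXP1 array of 24 h (1.61, 1.63, 1.61 and 1.63), with an adjusted p from 0.00282 to 0.0705 over the alternatives. The JAG1 effects in IMR-32 and CHP-212 differed by -4.49 (adjusted p = 4.63e-07). In SK-N-BE(2), beside 0.720% of all probes, limma called 0 of 7 and the methods' t-test 0, with 3 at an unadjusted limma p under 0.05, the fit blocked on time called 2 and that of all 24 arrays called 1. The median there was 0.56 (0.42 and 0.75 within the slides). It was 0.30 without the FOXP1 array of 24 h and 0.82 over the 5 genes measured on all 8 arrays.

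Of 14 reelin pathway genes, 4 had a named probe. In IMR-32, 2 of 4 were called higher and 0 lower, beside 12.2% of all probes. RELN, 1 of the 2, met the filter of 4 measured arrays through its FOXP1 arrays alone. The median was 0.67 against -0.01 over all probes (0.93 and 0.52 within the slides). With normexp it was 0.26 against 0.22, and the 1 gene measured on all 8 arrays stood at -0.38, so the list has no settled direction. The genes called were RELN and the integrin ITGA3, which binds reelin, by 1.73 (adjusted p = 0.0311, measured on 2 of 4 GFP arrays). ITGA3 was not called with normexp (0.97), with no filter, with the methods' t-test, with all 24 arrays in 1 fit or with 12, 24 and 72 h alone, nor when the GFP array of 0 or 12 h or the FOXP1 array of 12, 24 or 72 h was left out (1.33 to 1.78), and its adjusted p over all alternatives ran from 0.00153 to 0.491. In CHP-212, 2 of 3 were called lower, beside 3.03% of all probes: RELN and its receptor VLDLR, the latter by -1.12 (adjusted p = 0.0132, measured on 2 of 4 FOXP1 arrays), with a median of -1.12, which is VLDLR itself (-0.94 on the slide where it was measured throughout; -0.69 over the 2 genes measured on all 8 arrays). In SK-N-BE(2), RELN was the 1 gene called of 3, beside 0.720% of all probes, and the median was -0.01 (0.19 and -0.21 within the slides; 0.02 under normexp; -1.03 over the 2 genes measured on all 8 arrays). VLDLR there differed by 0.63 and did not pass, and its effects in CHP-212 and SK-N-BE(2) differed by -1.76 in the fit (adjusted p = 5.56e-05) and by -1.56 with the unmeasured CHP-212 spots by the rule for them. The fitted value became -0.49 and did not pass with the labels of SK-N-BE(2) exchanged (adjusted p = 0.312). The receptor's call in CHP-212 is narrow: with the rule for unmeasured spots the difference was 1.91-fold, short of 2-fold, and the call was lost with normexp (-0.45), with 12, 24 and 72 h alone (-1.17, adjusted p = 0.0685) and without the GFP array of 72 h (-1.10, adjusted p = 0.0544) or the FOXP1 array of 12 h (-0.97), over alternatives with an adjusted p from 8.69e-05 to 0.239.

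**Figure D4:**
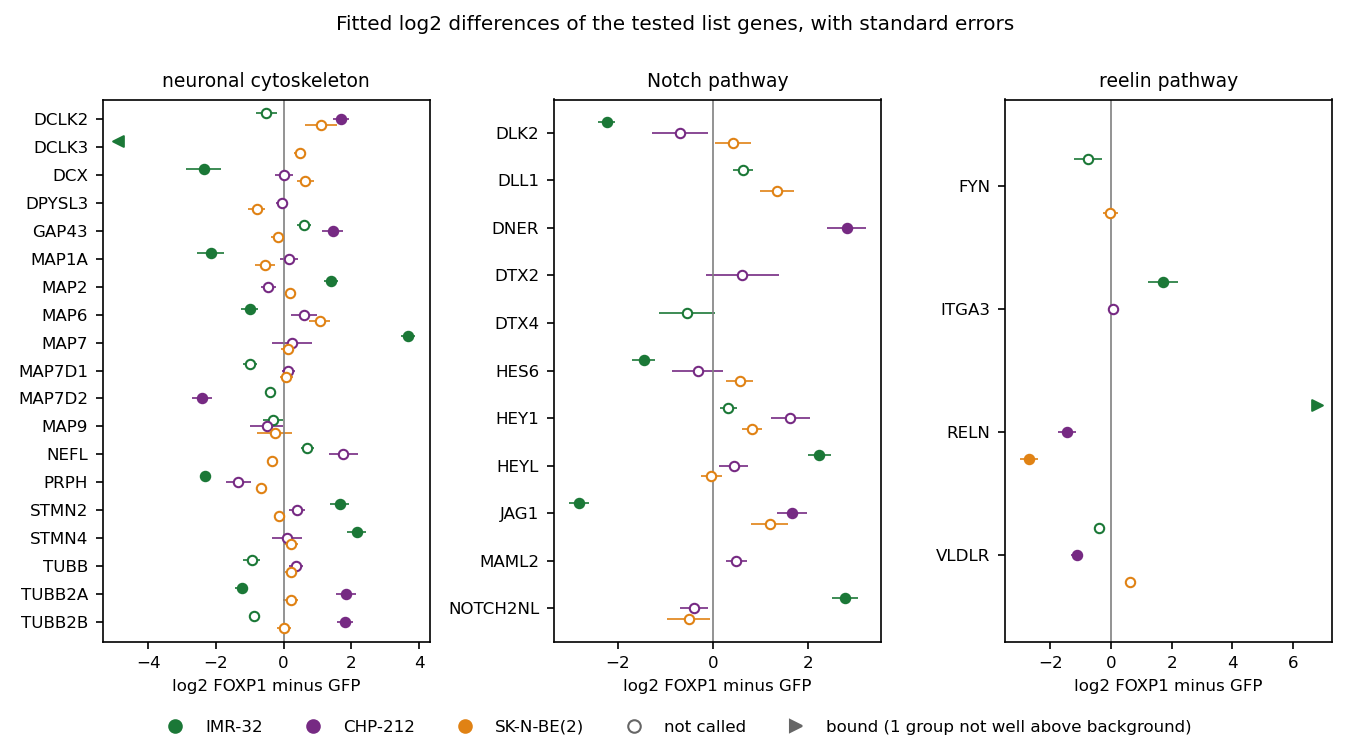
Fitted log2 difference, FOXP1 label minus GFP (horizontal axis), of the tested genes of the neuronal cytoskeleton, Notch and reelin lists, coloured by line, with bars for the standard error. Filled points were called, open points were not, and triangles are bounds for a gene that one group did not measure; JAG1 lies at -2.83 in IMR-32 and 1.66 in CHP-212.

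For each member, the probes whose log2 level varied most like it over the 24 arrays were looked up among 33354 probes by Pearson's r. These values describe arrays that share lines, cultures and slides, and carry no p. MAP2 was most like PRTFDC1 (r = 0.971), followed by UKv4_A_23_P300728 (0.949) and UKv4_A_23_P168629 (0.947). NEFL was most like UKv4_A_23_P2152 (0.939), UKv4_A_32_P21993 (0.935) and UKv4_A_32_P28284 (0.929), which the incomplete copy of the supplementary table does not name. DNER, itself well above background on 6 of 24 arrays, was most like LRIG1 (0.967), HSPB3 (0.966) and UKv4_A_24_P320699 (0.962). RELN was most like UKv4_A_23_P120931 (0.961), APOBEC3F (0.949) and UKv4_A_32_P60561 (0.947), but 4 of the 24 arrays did not measure RELN, and over the other 20 r was 0.549, 0.469 and 0.900 in the same order.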

How the data were processed

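RNA was measured on 24 one-colour arrays. According to the deposited files, background and trends within an array were removed by the authors' scanner software, and processed signal intensities were deposited without normalization between arrays. A second deposited table of intensities is not described in the files, and was read as quantile-normalized because its columns share their sorted values to within 0.088%. Here, control spots and 311 outlier spots were left out, and log2 signals were set relative to each array's 75th percentile. Probes well above background on at least 4 of a line's 8 arrays were tested with limma 3.58.1 in R 4.3.3 (two-sided, Benjamini-Hochberg over all tested probes); other contrasts used all 24 arrays. Fits were tested on simulated arrays with independent noise and no slide, time or culture structure, so the p values were not tested for this design. Deviations of FOXP1 and GFP arrays of one time correlated by 0.375 to 0.601 in IMR-32 and 0.370 to 0.670 in SK-N-BE(2), whose pairs lie on one slide; the comparison stayed unpaired as in the study's methods. Named list genes are up to 3 called with the highest and 3 with the lowest difference per list and line; TUBB2A and JAG1 between lines, and VLDLR in SK-N-BE(2), were added after their values were seen. The members and lists were chosen with earlier results of these data known. Alternatives were normexp (median spot signal, offset 50), quantile normalization, the authors' values, other filters, blocks, the methods' t-test, fewer time points, 1 fit of all arrays, leaving out arrays and, added after seeing the data, the SK-N-BE(2) labels exchanged and lines compared by the ratios of a time point.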

Additional observations from a re-analysis of the deposited data

Results flagged for a closer look

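In IMR-32 FOXP1 cells, the NEFL level of 1.64 at 72 h lay far from the other 3 arrays of its group (gap over range 0.883). The DNER reading of -8.12 at 24 h did so too (0.839), but 0 of the 4 arrays measured that probe. Before scaling, its signal of 3.87 lay within the range of the group (3.05 to 4.87), so the mark is no result about DNER. Chance alone marks about 1 in 20 such groups, and no cause was tested.

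The effect of FOXP1 against GFP differed between lines by a test of the difference itself for MAP2, by 1.85 (IMR-32 minus CHP-212) and 1.22 (IMR-32 minus SK-N-BE(2)), for NEFL by 2.10 (CHP-212 minus SK-N-BE(2)), and for RELN by at least 8.24 (IMR-32 minus CHP-212) and at least 9.49 (IMR-32 minus SK-N-BE(2)), all on the log2 scale. The direction in SK-N-BE(2) rests on the label, and with its labels exchanged the values against it were 1.58 for MAP2, 1.43 for NEFL, which no longer passed, and at least 4.10 for RELN. For RELN, the fits took the unmeasured IMR-32 GFP spots at their own signal, so their p adds no support to the bounds. Lines lay on slides of their own, and line and slide cannot be told apart.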

How the results depend on the processing

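Of 323 fitted differences under an alternative, 292 kept their direction and their side of the call (adjusted p and 2-fold together; slopes by adjusted p), as did 48 of 54 bounds, and 210 of 272 counts stayed within 1.5 times; the cause of the shifts below was not tested unless stated.

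NEFL in CHP-212 passed with normexp (1.68, adjusted p = 0.0259), the authors' values (1.71, 0.049), probes measured on all 8 arrays, the slide as a block and all 24 arrays in 1 fit (1.76 each), and with an array left out ranged from 1.34 to 2.09. With the time point as a replicate block it was 1.76 (adjusted p = 0.0254); the arrays of 0 h there correlated by 0.0535, so the times do not all pair, and each array of 12, 24 and 72 h correlated best with its own time. RELN in CHP-212 lost its call with no filter (-1.45, adjusted p = 0.0768), the methods' t-test (-1.45, 0.0902) and 12, 24 and 72 h only (-1.43, 0.0867), and ranged from -1.71 to -1.27 with an array left out; in SK-N-BE(2) it lost it with those 3 times (-2.86). DNER in GFP cells, with the mean of all 4 CHP-212 arrays although 2 of them did not measure it, IMR-32 minus CHP-212, was bounded at -0.56 (normexp), -0.76 (quantile) and -1.44 to -0.72 (a replicate left out), and CHP-212 minus SK-N-BE(2) at 0.41 to 1.09. With the time point as a replicate block, differences between lines that passed in addition were NEFL (-1.06 for IMR-32 minus CHP-212, 1.04 for IMR-32 minus SK-N-BE(2)) and RELN (1.25 for CHP-212 minus SK-N-BE(2)); 2001 probes were called for CHP-212 minus SK-N-BE(2). The replicate block changed no other call of a member.

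Values near 0 changed sign: RELN in GFP cells, CHP-212 minus SK-N-BE(2) (-0.11 to 0.25 with a replicate left out), NEFL at 12 against 0 h without the CHP-212 FOXP1 culture (0.01), RELN at 12 against 0 h without IMR-32 FOXP1 (0.00), MAP2 at 72 against 24 h without IMR-32 GFP (0.00) and the RELN slope in SK-N-BE(2) (-0.07 normexp, -0.02 quantile).

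Calls in IMR-32 numbered 1426 with normexp. In CHP-212 they numbered 605 with normexp, 628 with probes measured on all 8 arrays, 650 with the t-test and 620 to 1073 with an array left out; in SK-N-BE(2), 477 with the time block, 121 with the t-test, 40 with 12, 24 and 72 h only and 127 to 213 with an array left out. The methods' t-test called 1374, 4170 and 537 probes in CHP-212, in IMR-32 and in SK-N-BE(2) at the 2-fold limit of the methods and an unadjusted p under 0.05, a limit the methods do not state, and 650, 3637 and 121 after Benjamini-Hochberg. Normexp gave 1918, 1663 and 264 calls for differences between lines (IMR-32 minus CHP-212, IMR-32 minus SK-N-BE(2), CHP-212 minus SK-N-BE(2)), the last 587 without 0 h, and 7181, 5223 and 7339 in GFP cells. The 12 against 0 h count was 314 with normexp and 292, 294 and 251 without IMR-32 GFP, SK-N-BE(2) GFP or SK-N-BE(2) FOXP1. Slopes called in IMR-32 were 0 with normexp and with quantile normalization (385 and 1780 at an unadjusted p under 0.05), and the 72 against 24 h count stayed 0 (846 and 3265). The lists had 3 cytoskeletal calls in CHP-212 with quantile normalization. With normexp they had 2 Notch calls in IMR-32 and 3 in CHP-212, and 1 reelin call each in IMR-32 and CHP-212.

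The other alternatives for the lists, the replicate block between lines and the exchange of the SK-N-BE(2) labels were chosen after seeing the data. Notch calls in CHP-212, 2 in the report, were 1 with the t-test and with 12, 24 and 72 h only and 1 to 3 with an array left out. They were 3 with the time point as a replicate block, the slide as a block and all 24 arrays in 1 fit. Under each of these settings, cytoskeletal calls in CHP-212 were 7, against 5 in the report. Reelin calls in IMR-32, also 2, were 1 with no filter, the t-test, 12, 24 and 72 h only and all 24 arrays in 1 fit, 0 with probes measured on all 8 arrays, where RELN was not tested (limma, 1 at an unadjusted p under 0.05), and 1 to 2 with an array left out. Reelin calls in CHP-212, again 2, were 1 with probes measured on all 8 arrays, no filter and the t-test, 0 with 12, 24 and 72 h only (limma, 2 at an unadjusted p under 0.05) and 0 to 2 with an array left out. In SK-N-BE(2) the reelin call became 0 with 12, 24 and 72 h only (limma, 1 at an unadjusted p under 0.05), cytoskeletal calls were 1 with the time point as a replicate block, and Notch calls were 2 with that block and 1 with all 24 arrays in 1 fit. With the SK-N-BE(2) labels exchanged, CHP-212 minus SK-N-BE(2) was 1.43 for the NEFL effect and -4.14 for the RELN effect, and -0.99 (NEFL) and 2.78 (RELN) for the level in GFP cells.

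Requiring all 8 arrays removed RELN in IMR-32 and DNER in CHP-212, so neither has a value there. Signal over background limits DNER most, with 6 of 24 arrays measured.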
